A study of Mus musculus with 16 samples.

Results

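Disease-associated microglia are a state first described in degenerating brain, and 6 genes that act as its effectors were followed here: Spp1, Gpnmb, Cst7, Lpl, Cd68 and Ch25h. They were chosen by name, as the genes of the deposited table whose symbol matched the list, and all 6 were found among 54532 genes and passed the filter on low counts that left 12496 genes for testing. The libraries hold RNA from microglia of the retina, its resident macrophages. They were sorted from pups of the Cx3cr1CreERT2:Rosa26-tdTomato reporter line at postnatal day 17, as cells with low CD45, with CD11b and tdTomato, and without Ly6C or Ly6G on the surface. In 8 libraries the pups had oxygen-induced retinopathy (OIR), a model in which newborn mice breathe high oxygen and are returned to room air, after which the under-supplied retina grows abnormal vessels. The other 8 libraries (nonOIR) came from pups without it. All pups of both groups received 5 µl of tamoxifen at 21 mg per ml under the skin at postnatal day 1, which switches on the reporter in cells that use the Cx3cr1 promoter. That promoter is also active in border macrophages and monocytes, so the reporter alone does not mark microglia.

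In each group 5 libraries carry lane code 1 and 3 carry lane code 2 in the labels. Whether this code goes with different litters or preparations is not stated, and neither is whether each library comes from its own animal. The p-values therefore cover the spread among these samples only, part of which may be technical. Library totals ran from 13.6 to 30.0 M counts (mega-counts). Levels are in CPM, the count divided by the TMM-scaled library size in mega-counts. All 11 microglial marker genes examined, among them P2ry12 and Tmem119, stood above 100 CPM in every library. Because each library pools sorted cells, more cells that express a gene and more of its RNA per cell cannot be told apart.

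When microglia meet dying cells, myelin debris or protein deposits, they lower their resting genes and raise genes of lysosomal digestion, lipid handling and secretion, partly through the lipid receptor TREM2. Among the effectors, osteopontin (Spp1) is a secreted phosphoprotein bound by integrins and CD44, GPNMB is a transmembrane glycoprotein of lysosomes, and cystatin F (Cst7) is an inhibitor of lysosomal cysteine proteases. Lipoprotein lipase (Lpl) releases fatty acids from lipoproteins, CD68 is a glycoprotein of the lysosomal membrane used as a macrophage marker, and the Ch25h enzyme turns cholesterol into an oxysterol. In the retina, a state of this kind has been described where photoreceptors degenerate.

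Of the 6 genes, Gpnmb, Lpl, Cst7 and Spp1 were higher in OIR and Cd68 and Ch25h did not pass the test. Gpnmb, Lpl and Cst7 were higher in every OIR library than in any nonOIR library. The rise of Spp1 lay almost wholly in the 3 OIR libraries of lane code 2, as did the high values of Ch25h. Calls rest on edgeR's quasi-likelihood test at a Benjamini-Hochberg adjusted p under 0.05 over all 12496 genes. By that rule 4 of 6 were called higher, where 6.39% of all tested genes were, and 0 of 6 lower, where 4.56% were (edgeR, 798 genes higher and 570 lower). With library size alone as the scaling the split was 1020 higher and 364 lower, and with upper-quartile scaling 675 and 647. The median log2 fold change of the 6 genes was 1.78, against -0.0305 over all tested genes. Genes with all 8 OIR above all 8 nonOIR libraries made up 3 of 6, against 1.34% of tested genes. The 6 genes were chosen with earlier results of these libraries known. The median and these shares, also those within lanes below, are therefore no independent evidence.

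The genes lie on 6 chromosomes, with positions given here on mm10 from GENCODE M21. Spp1 (ENSMUSG00000029304) spans chr5:104435118-104441050 on the plus strand with 6 exons in its longest transcript, Gpnmb (ENSMUSG00000029816) chr6:49036546-49070929 on the plus strand with 11, and Cst7 (ENSMUSG00000068129) chr2:150570415-150578944 on the plus strand with 4. Lpl (ENSMUSG00000015568) spans chr8:68880491-68907448 on the plus strand with 10 exons, Cd68 (ENSMUSG00000018774) chr11:69664213-69666153 on the minus strand with 6, and Ch25h (ENSMUSG00000050370) chr19:34473778-34475164 on the minus strand as 1 exon without introns. The libraries do not mark strand. Exons of Spp1 share 309 bases with Gm42793, which held 8 counts over the OIR libraries and 0 over the nonOIR libraries. Exons of Ch25h share 159 bases with Gm26902 on the opposite strand, which held 17 and 11 counts, so reads in that stretch cannot be assigned by direction.

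Promoter windows of RefSeq (GRCm38.p6, the sequence of mm10), from 250 bases before to 50 after each start, were matched for 5 of the 6 genes, all but Lpl. The stretches shown are those that hold the matches, because 1 motif was shared by genes that were called and by 1 that was not. Motifs were searched on both strands: TGANTCA, the form bound by AP-1 factors, GAGGAA, a core bound by PU.1, the interferon-type element (GAAA, any pair of bases, GAAA), and CACGTG, the E-box bound by the MiT factors MITF, TFEB and TFE3. No matches overlapped each other in these stretches. Capitals mark the matches, and positions count from 1 at the first transcribed base by RefSeq, with -1 just before it. For Gpnmb, Cd68 and Spp1 this base is not the GENCODE start given above. The match in Gpnmb lies after its RefSeq start but before its GENCODE start.
Cst7, chr2:150570255-150570415, plus strand, -160 to 1: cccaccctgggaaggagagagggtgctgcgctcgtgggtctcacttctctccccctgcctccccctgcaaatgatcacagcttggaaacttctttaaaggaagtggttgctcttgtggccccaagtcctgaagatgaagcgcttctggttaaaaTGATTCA
Gpnmb, chr6:49036511-49036540, plus strand, -7 to 23: gatgccaggggcaagTGACTCAtgagcacg
Cd68, chr11:69666171-69666330, minus strand, -160 to -1: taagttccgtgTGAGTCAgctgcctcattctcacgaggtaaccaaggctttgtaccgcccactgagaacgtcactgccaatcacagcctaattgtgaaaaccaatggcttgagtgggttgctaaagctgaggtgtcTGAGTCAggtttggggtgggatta
Spp1, chr5:104434951-104435110, plus strand, -160 to -1: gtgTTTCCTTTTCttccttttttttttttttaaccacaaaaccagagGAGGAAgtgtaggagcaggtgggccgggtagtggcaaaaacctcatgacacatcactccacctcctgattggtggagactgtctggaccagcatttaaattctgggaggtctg
TGANTCA was present in 3 genes, once in Cst7 (-6 to 1), once in Gpnmb (9 to 15) and in Cd68 at -149 to -143 and at -24 to -18. It occurs in 7.81% of 32851 RefSeq windows of 300 bases. The Spp1 stretch holds GAGGAA at -113 to -108 and, on the opposite strand, the interferon-type element at -157 to -148, which occur in 28.3% and 3.44% of windows. Cd68 also holds GAGGAA, at -225 to -220 and, on the opposite strand, 30 to 35, outside the stretch shown. CACGTG was in no window of the 5 genes and in 7.15% of all windows, and the Ch25h window held none of the 4 motifs. CACGTG was the only form searched for the MiT factors, so its absence does not show that a site for them is lacking. So the AP-1 form stood at the start of 2 genes called higher and of Cd68, which was not called. A match describes letters only and is no measure of binding.

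**Figure D1:**
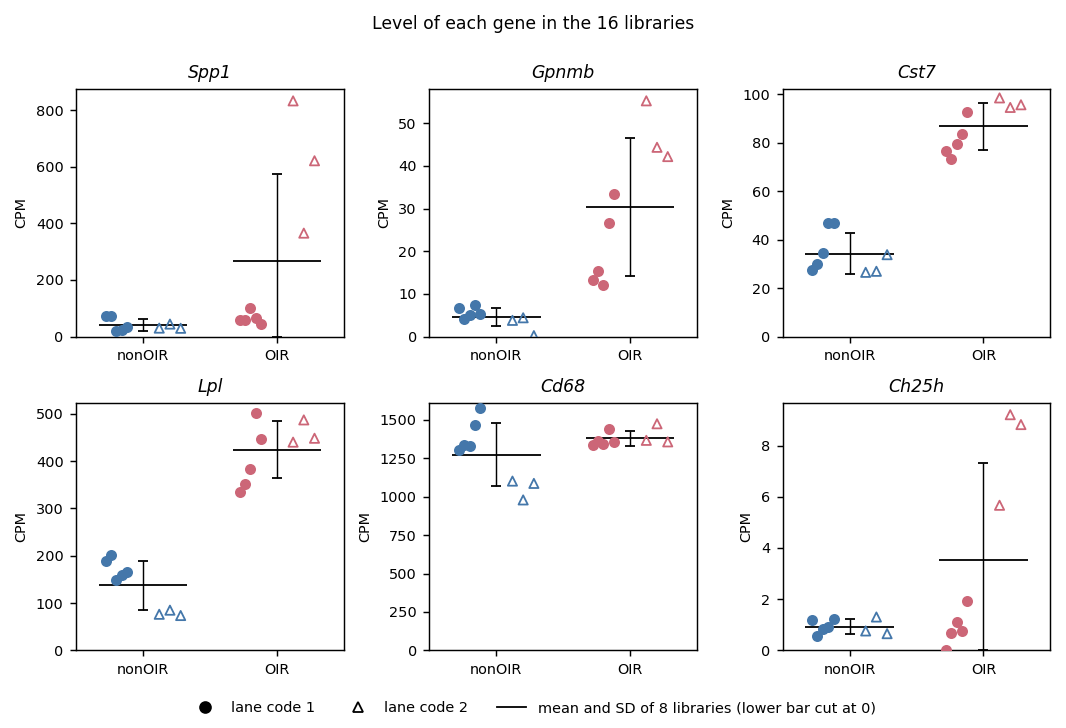
Level in CPM (linear axes) of the 6 genes in the 8 nonOIR and 8 OIR libraries, filled circles for lane code 1 and open triangles for lane code 2, with the mean and SD as bars. Cst7, Lpl and Gpnmb show separate groups, while in Spp1 and Ch25h the 3 triangles of OIR stand above all other libraries.

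Cst7 gave the tightest rise. Over nonOIR libraries Cst7 ran from 26.5 to 47.0 CPM with a median of 31.9, and over OIR libraries from 73.3 to 98.4 CPM with a median of 87.9. The groups did not overlap, and the lowest OIR library lay well above the highest nonOIR library. The mean rose from 34.1 ± 8.49 to 86.7 ± 9.68 CPM (SD, n = 8), or 2.54-fold (log2 1.34 ± 0.13, SE, edgeR adjusted p = 2.38e-05). By p, Cst7 ranked 3 of 12496 genes, although its fold ranked only 369.

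Lpl rose 3.10-fold. Its nonOIR libraries ran from 73.6 to 201 CPM with a median of 154, and its OIR libraries from 335 to 502 CPM with a median of 444. Again no library of 1 group reached the other. Within nonOIR the 3 libraries of lane code 2 (73.6 to 85.0 CPM) lay below all 5 of lane code 1 (148 to 201 CPM). The mean went from 137 ± 51.5 to 425 ± 61.1 CPM (SD, n = 8), or 1.63 ± 0.20 on the log2 scale (SE, edgeR adjusted p = 0.000126), rank 14 by p.

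Gpnmb was scarce without OIR and rose 6.56-fold. Its nonOIR libraries ran from 0.217 to 7.34 CPM with a median of 4.76, and its OIR libraries from 12.2 to 55.2 CPM with a median of 30.0. The groups did not overlap. The lowest value belongs to nonOIR replicate 8, with 5 counts, where the other 7 nonOIR libraries held at least 85. The log2 fold change was 2.71 ± 0.44 (SE, n = 8 per group, edgeR adjusted p = 0.000830), and 2.53 without that library (edgeR adjusted p = 0.000330).

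Spp1 rose 6.68-fold on average and unevenly. Its nonOIR libraries ran from 17.9 to 71.7 CPM with a median of 31.4. The OIR libraries ran from 42.7 to 833 CPM with a median of 83.3, and 4 of 8 lay above every nonOIR library. OIR replicates 6, 7 and 8, all of lane code 2, held 833, 366 and 621 CPM, and the next highest library, OIR replicate 3, held 102 CPM. The mean rose from 40.2 ± 20.6 to 268 ± 307 CPM (SD, n = 8), an SD larger than the mean. The log2 fold change was 2.74 ± 0.61 (SE, edgeR adjusted p = 0.00747), with a 95% interval of 1.46 to 4.02. With lane as a covariate it was 1.83 (edgeR adjusted p = 0.0397), and with limma-voom 1.99, where the call was lost (limma adjusted p = 0.0607).

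Cd68 was abundant in both groups and was not called. Its nonOIR libraries ran from 979 to 1580 CPM with a median of 1317, and its OIR libraries from 1336 to 1474 CPM with a median of 1361. The OIR values lay inside the nonOIR range, and their SD was the smaller, with means of 1273 ± 204 CPM in nonOIR and 1380 ± 50.3 CPM in OIR (SD, n = 8). The log2 fold change was 0.12 ± 0.09 (SE, edgeR adjusted p = 0.439), and its 95% interval of -0.06 to 0.30 reaches a 1.23-fold rise at most.

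Ch25h was near the limit of detection and was not called. Its nonOIR libraries ran from 0.547 to 1.30 CPM with a median of 0.857, which is 13 to 32 counts. OIR replicate 1 held 0 counts, which allows up to 0.119 CPM (3 counts, counting error only), and the highest OIR library held 9.20 CPM, or 208 counts. The OIR median was 1.52 CPM and the groups overlapped, with 4 of 8 OIR libraries above every nonOIR library. The mean was 0.925 ± 0.285 CPM in nonOIR and 3.52 ± 3.81 CPM in OIR (SD, n = 8), a log2 difference of 1.92 ± 0.72 (SE, edgeR adjusted p = 0.0985). DESeq2 called it at the same size (1.95, DESeq2 adjusted p = 0.0379), and so did edgeR without OIR replicate 1 (2.12, edgeR adjusted p = 0.0179), while limma-voom gave 0.53 (limma adjusted p = 0.795).

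In the authors' deposited table the log2 fold changes were 1.78 for Gpnmb, 1.47 for Lpl, 1.29 for Cst7 and 1.23 for Spp1. The authors' deposited table gives Ch25h 0.83 with an adjusted p of 0.0405 and Cd68 0.12 with an adjusted p of 0.391. For Spp1, Gpnmb and Ch25h the values in the authors' deposited table are smaller than those of edgeR, and for Cst7, Lpl and Cd68 the estimates differ by at most the edgeR standard error.

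Within lane code 1 (5 against 5 libraries) the rises of Gpnmb, Cst7 and Lpl were called and the other genes were not. The edgeR log2 fold changes were 1.82 for Gpnmb (adjusted p = 0.00830), 1.13 for Cst7 (adjusted p = 0.00312) and 1.24 for Lpl (adjusted p = 0.000253). Spp1 stood at 43.7 ± 25.8 CPM in nonOIR and 65.4 ± 22.2 CPM in OIR (SD, n = 5), a log2 difference of 0.59 (edgeR adjusted p = 0.455). Ch25h stood at 0.937 ± 0.284 and 0.898 ± 0.706 CPM (SD, n = 5), a log2 difference of -0.0498 (edgeR adjusted p = 0.988), and Cd68 at 1403 ± 117 and 1368 ± 43.1 CPM, with -0.0295 (edgeR adjusted p = 0.892). In this lane 3 of 6 genes were called higher, against 2.2% of tested genes, and 3 of 6 did not overlap, against 3.3%.

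Within lane code 2 (3 against 3 libraries) all 6 genes were called higher and none overlapped. Spp1 stood at 34.3 ± 8.42 CPM in nonOIR and 607 ± 234 CPM in OIR (SD, n = 3), a log2 fold change of 4.19 (edgeR adjusted p = 0.000106). Ch25h rose from 0.904 ± 0.349 to 7.90 ± 1.94 CPM (SD, n = 3), a log2 fold change of 3.16 (edgeR adjusted p = 0.00210). Lpl rose by 2.59 on the log2 scale, Cst7 by 1.77 and Gpnmb by 4.11 (edgeR adjusted p = 5.55e-06, 0.000130 and 0.00395). The size for Gpnmb is loosely set, because its nonOIR side stood at 2.80 ± 2.26 CPM (SD, n = 3). Replicate 8, with 5 counts, is 1 of those 3 libraries. Cd68 rose from 1055 ± 66.8 to 1399 ± 65.3 CPM (SD, n = 3), a log2 fold change of 0.45 (edgeR adjusted p = 0.00632). In this lane 9.63% of tested genes were called higher, and 18.2% had all 3 OIR above all 3 nonOIR libraries.

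**Figure D2:**
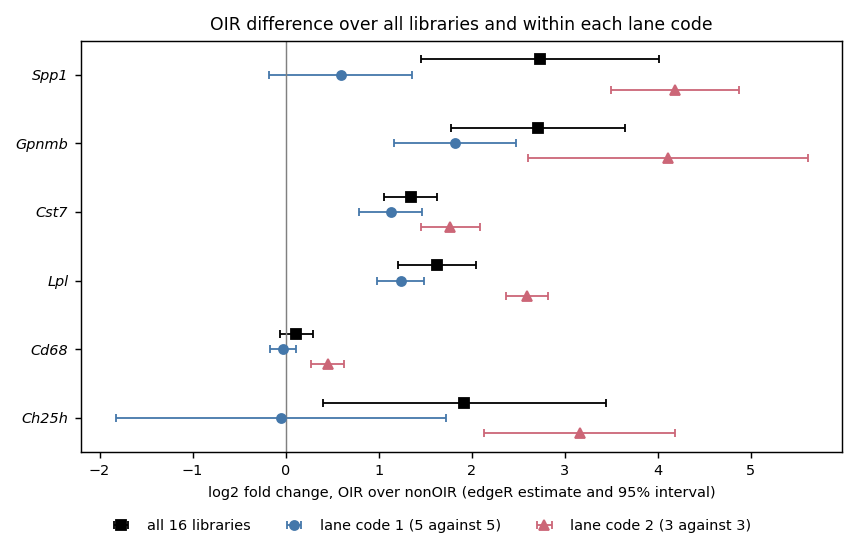
log2 fold change of OIR over nonOIR for each gene over all 16 libraries (squares), within lane code 1 (circles) and within lane code 2 (triangles), with edgeR's 95% intervals as bars. The lane code 2 estimate lies to the right of the lane code 1 estimate for all 6 genes, from 1.77 against 1.13 in Cst7 to 4.19 against 0.59 in Spp1.

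The OIR difference itself was larger in lane code 2 for Spp1 and Lpl. The group by lane term was 3.56 ± 0.57 for Spp1 and 1.32 ± 0.18 for Lpl on the log2 scale (SE, edgeR adjusted p = 0.00881 and 0.00210), where 0.28% of tested genes were called larger in lane code 2. In Spp1 the lanes parted on the OIR side, with an OIR mean 9.28 times as high in lane code 2 as in lane code 1 and a nonOIR ratio of 0.785. In Lpl they parted on the nonOIR side, with a ratio of 0.454 in nonOIR and 1.13 in OIR. The term was positive but not called for Ch25h (3.17, edgeR adjusted p = 0.193), Gpnmb (2.26, 0.153), Cst7 (0.60, 0.244) and Cd68 (0.44, 0.0604). Limma-voom also called Cd68 (limma adjusted p = 0.0462). Since these terms come from the same 16 libraries, their common sign is not 6 separate observations.

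Per length of exon, which allows levels to be compared between genes, Cd68 stood far above the others in both groups. Its level was 1013 ± 162 CPM per kb in nonOIR and 1098 ± 40.1 in OIR (SD, n = 8, exon union). In nonOIR it was followed by Cst7 (34.6 ± 8.61 CPM per kb), Spp1 (24.4 ± 12.5), Lpl (13.1 ± 4.91), Gpnmb (0.711 ± 0.332) and Ch25h (0.667 ± 0.206), with ranges that overlapped between Cst7 and Spp1, between Spp1 and Lpl and between Gpnmb and Ch25h. In OIR the order by mean was Spp1 (163 ± 186 CPM per kb), Cst7 (87.9 ± 9.82), Lpl (40.5 ± 5.83), Gpnmb (4.65 ± 2.48) and Ch25h (2.54 ± 2.74). By mean, Spp1 stood above Cst7 in lane code 2 (368 ± 142 CPM per kb, SD, n = 3, against 97.5 ± 2.06 for Cst7). In lane code 1 it stood at 39.7 ± 13.5 CPM per kb, below Cst7 at 82.2 ± 7.52 (SD, n = 5), and its median over all 8 OIR libraries, 50.6 CPM per kb, was also below the 89.2 of Cst7. Over the 8 libraries the range of Spp1 took in all values of Cst7 and Lpl, and the ranges of Gpnmb and Ch25h overlapped. The place of Lpl depends on the length used: over its longest transcript in place of the union of exons it stood at 33.3 ± 12.5 CPM per kb in nonOIR and 103 ± 14.8 in OIR, above Spp1 in the first and above Cst7 in the second.

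Beside these changes, transcripts of border macrophages and of dividing cells were also highest in the OIR libraries of lane code 2. The summed level of 12 border macrophage genes was 682 to 729 CPM in those 3 libraries, 247 to 406 CPM in the other OIR libraries and 135 to 450 CPM in nonOIR. Of 11 tested, 2 were called higher, none was at 0 in all libraries, and Stab1 was the highest. Stab1 itself was lower in OIR of lane code 2 (170 CPM on average) than in OIR of lane code 1 (199 CPM), while the other listed genes were higher there. Of 14 monocyte and granulocyte genes Ly6c2, Ly6g and Retnlg were at 0 counts in all 16 libraries, and the sum was 126 to 145 CPM in OIR of lane code 2, 39.8 to 62.8 CPM in OIR of lane code 1 and 10.9 to 73.3 CPM in nonOIR, led by F13a1, with 1 of 5 tested called higher. F13a1 is also on the border macrophage list and held 99.7 CPM on average in OIR of lane code 2 and 19.6 CPM in OIR of lane code 1. Without it, a sum taken after seeing the data, the other 13 genes overlapped between the lanes, at 26.5 to 44.0 CPM in OIR of lane code 2, 19.0 to 62.8 CPM in OIR of lane code 1 and 7.25 to 14.7 CPM in nonOIR. The monocyte receptor gene Ccr2 stood at 3.49 CPM in OIR of lane code 2 and 6.26 CPM in OIR of lane code 1, and Plac8 at 1.60 and 4.21 CPM. The sum of 20 cell division genes, led by Mcm3, was 919 to 1142 CPM, 265 to 870 CPM and 163 to 212 CPM in OIR of lane code 2, OIR of lane code 1 and nonOIR, with 18 of 20 called higher. The sum of 15 resting microglial genes, led by Cst3, was 54988 to 63927 CPM, 74948 to 94507 CPM and 101342 to 127522 CPM in the same order, with 8 of 15 called lower. The part of these in the values of Spp1, Ch25h, Gpnmb, Lpl and Cst7 was not tested.

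**Figure D3:**
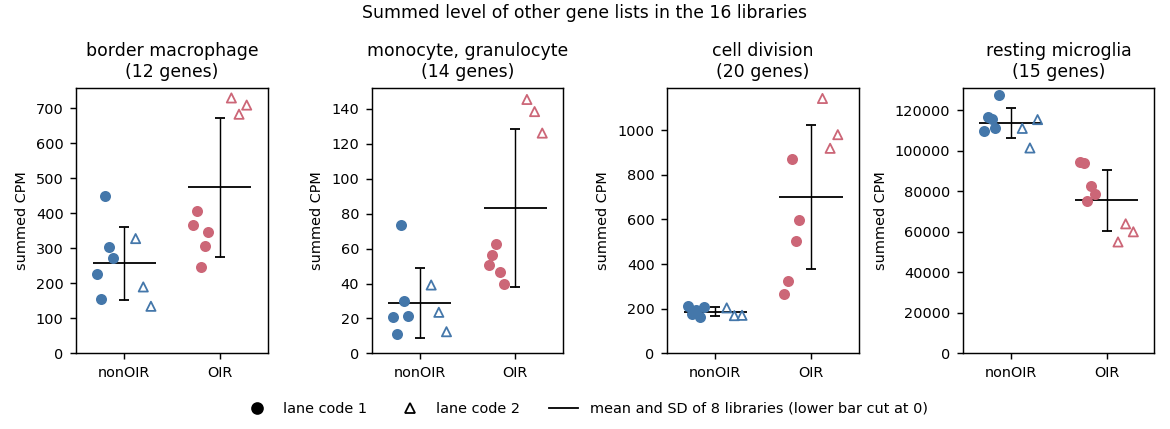
Summed CPM of 4 gene lists in the 8 nonOIR and 8 OIR libraries, filled circles for lane code 1 and open triangles for lane code 2, with the mean and SD as bars. The 3 OIR triangles are the highest points for border macrophage, monocyte and cell division genes and the lowest for resting genes. In the monocyte panel this height is that of F13a1, a gene both macrophage lists hold: it makes up 99.7 CPM of the mean there.

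Other lists were measured in the same way. Of 7 erythrocyte genes, led by Hbb-bs, 2 were tested and both were called higher, with sums of 0 to 28.9 CPM in nonOIR and 1.87 to 292 CPM in OIR. Genes of Müller glia and astrocytes, led by Glul, summed to 345 to 412 CPM in nonOIR and 292 to 385 CPM in OIR (1 higher and 2 lower of 6). Endothelial and pericyte genes, led by Pecam1, summed to 20.9 to 42.4 and 9.18 to 38.5 CPM (1 higher of 4), and genes induced by tissue dissociation, led by Btg2, to 644 to 881 and 575 to 798 CPM (3 higher and 2 lower of 12).

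Among 30 other genes of the disease-associated state, 12 rose and 1, the chemokine gene Ccl6, fell, with a median log2 fold change of 0.50 against -0.0305 over all tested genes. Over all tested genes 6.39% were called higher and 4.56% lower. The list of 30 was drawn up with earlier results of these libraries known, so its direction is no independent evidence. The lowest p among those that rose were those of the galectin Lgals3 (log2 fold change 4.38, edgeR adjusted p = 0.000107), the receptor kinase gene Axl (1.04, adjusted p = 0.000129), the fatty acid binding protein gene Fabp5 (2.43, adjusted p = 0.000299) and the growth factor gene Igf1 (2.62, adjusted p = 0.000300). The fall of Ccl6 (-0.50, edgeR adjusted p = 0.0354) did not hold when 1 of 9 libraries was omitted (nonOIR replicates 5 to 8 and OIR replicates 3, 4, 5, 6 and 8, each in turn). The lipid receptor gene Trem2 and its signalling partner Tyrobp were not called. In lane code 1 12 of the 30 were called higher, against 2.2% of tested genes, and in lane code 2 16 were, against 9.63%. The group by lane term was called for 2 of 30, where 0.28% of tested genes were called larger in lane code 2. Lgals3 rose from 5.95 to 53.3 CPM in lane code 1 and from 8.57 to 297 CPM in lane code 2 (term 1.93, edgeR adjusted p = 0.0437). The other was Fth1, the ferritin heavy chain (0.67, edgeR adjusted p = 0.0190).

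**Figure D4:**
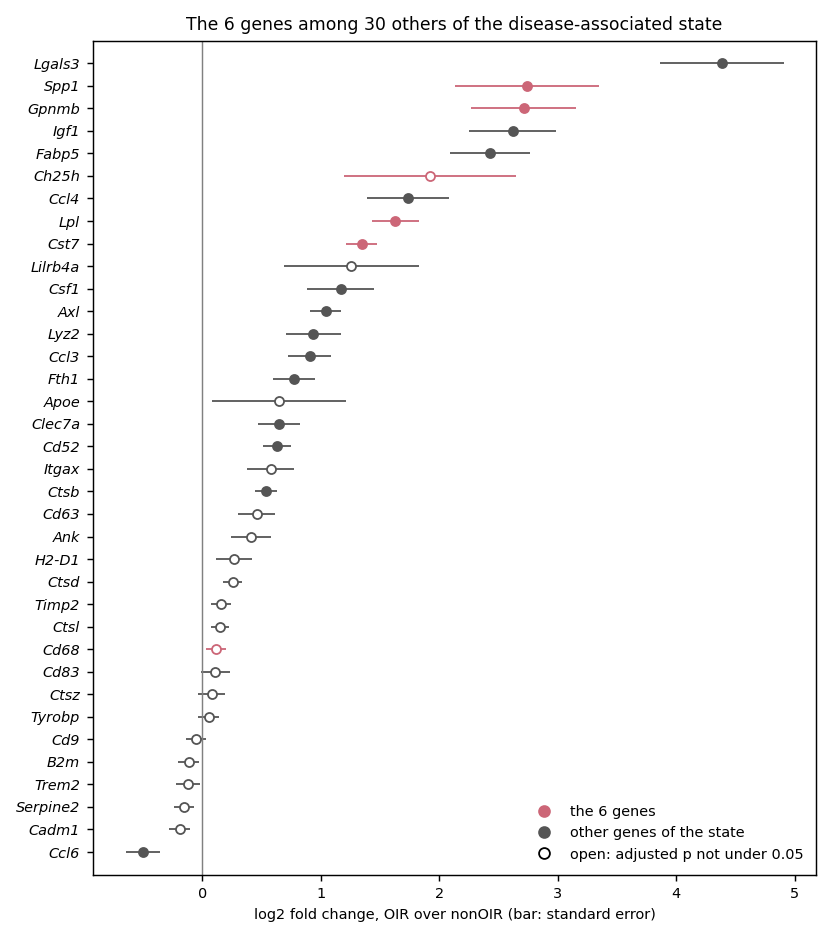
log2 fold change of OIR over nonOIR, with its standard error, for the 6 genes (red) and 30 other genes of the disease-associated state (grey), where filled points have an edgeR adjusted p under 0.05. Spp1 at 2.74 and Gpnmb at 2.71 follow Lgals3 at 4.38, and Cd68 at 0.12 lies among genes that were not called.

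Genes that act with the 6 effectors changed in both directions, more often upward. Over 9 lists of receptors, processing enzymes, relatives, targets and pathway members, 64 of 83 genes were tested. Of these 14 rose (21.9%, against 6.39% of all tested genes) and 5 fell (7.81%, against 4.56%), while the median log2 fold change was -0.0269, against -0.0305 over all tested genes. These lists too were drawn up with earlier results known. For Cd44, Itga5, Fam20c, Tfec, Mgll and Srebf2 the call was lost when some single libraries were left out.

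Of 8 tested osteopontin receptors, 2 rose. Cd44, which also binds hyaluronan, rose from 29.2 ± 9.36 to 49.4 ± 18.5 CPM (SD, n = 8, edgeR adjusted p = 0.0444), a call lost without any of 12 single libraries (all but nonOIR replicate 6 and OIR replicates 1, 2 and 3) and not made in lane code 1 (edgeR adjusted p = 0.180). The integrin chain Itga5 rose from 35.7 ± 10.2 to 53.7 ± 9.68 CPM (edgeR adjusted p = 0.0260, and 0.0518 without nonOIR replicate 7). Itga5 was not called in lane code 1 (edgeR adjusted p = 0.0871). The most abundant receptor gene was Itgb5, at 3618 ± 872 and 3110 ± 657 CPM, and the other integrin chains were not called either. With lane as a covariate 2 of the 8 receptor genes were called higher and 2 lower. Of 5 tested genes of osteopontin processing, 2 rose. The elastase Mmp12, which cleaves osteopontin, rose by 5.36 on the log2 scale (edgeR adjusted p = 0.00292), with OIR means of 8.38 CPM in lane code 1, where it was not called (edgeR adjusted p = 0.127), and 137 CPM in lane code 2. Limma-voom did not call it. Fam20c, the kinase that phosphorylates osteopontin, stood at 20.1 CPM in OIR of lane code 1 and 51.2 CPM in OIR of lane code 2, against 19.6 and 12.6 CPM in nonOIR. Its group by lane term was called, as that of Spp1 was (1.98, edgeR adjusted p = 0.0108), while its overall rise (0.91, edgeR adjusted p = 0.0496) was lost without any of 13 single libraries (all but OIR replicates 1, 2 and 3), with lane as a covariate and with limma-voom.

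GPNMB expression in macrophages is driven by the MiT factors, and of 7 genes of these factors and of relatives and partners of GPNMB, 2 rose. Tfec, the macrophage member of the MiT factors, rose from 1.17 ± 1.17 to 6.23 ± 1.75 CPM (SD, n = 8, log2 fold change 2.42, edgeR adjusted p = 0.0314). The call was lost without any of 5 single libraries, which were nonOIR replicate 6 and OIR replicates 5 to 8. Tfec was also not called in lane code 1 (edgeR adjusted p = 0.183). The other gene was Cd44. Mitf, Tfeb and Tfe3, the better known MiT factors, were not called and stood at 17.9, 40.8 and 126 CPM in nonOIR and 16.1, 37.5 and 119 CPM in OIR.

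The cystatins, inhibitors of cysteine proteases, moved apart. Besides Cst7, the cytosolic inhibitor Cstb rose from 94.6 ± 12.2 to 193 ± 75.0 CPM (SD, n = 8, edgeR adjusted p = 0.00180), with a called group by lane term of 0.76 (edgeR adjusted p = 0.0397). Cystatin C (Cst3), a resting microglial gene and by far the most abundant cystatin, fell by 0.92 on the log2 scale (edgeR adjusted p = 0.000221), in both lanes. The other 4 cystatin genes listed did not pass the filter. Of 6 lysosomal cysteine proteases, Ctsb rose from 7446 ± 1077 to 10799 ± 1110 CPM (edgeR adjusted p = 0.00110) and Ctss fell from 27180 ± 2491 to 18754 ± 4389 CPM (SD, n = 8, edgeR adjusted p = 0.00752). Within lane code 1 Ctss was not called (edgeR adjusted p = 0.0874). The genes of the known cystatin F targets cathepsins C, L and H and of legumain were not called over all libraries. With lane as a covariate Ctsc (-0.19, edgeR adjusted p = 0.0329) and Lgmn (-0.28, edgeR adjusted p = 0.0126) were called lower. Lgmn was also called lower with DESeq2 (-0.26, DESeq2 adjusted p = 0.0463) and within lane code 2 (edgeR adjusted p = 0.0246), and Ctsc within lane code 1 (edgeR adjusted p = 0.0451).

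Around lipoprotein lipase the apolipoprotein gene Apoc1 was the 1 of 9 tested partners called. It rose from 12.6 ± 2.94 to 43.1 ± 9.09 CPM (SD, n = 8, log2 fold change 1.77, edgeR adjusted p = 1.93e-05), by 1.74 in lane code 1 and 1.88 in lane code 2. The most abundant partner, Apoe, differed more between lanes than between groups. Its means were 8949 CPM in nonOIR and 14082 CPM in OIR of lane code 1, and 1316 and 1977 CPM of lane code 2. Over all libraries it was not called (0.65, edgeR adjusted p = 0.524), and within each lane it was (0.66 and 0.63, edgeR adjusted p = 0.0261 and 0.0382). The activator gene Apoc2 and Gpihbp1, which anchors the enzyme on capillaries, did not pass the filter. Genes that take up or hydrolyse fatty acids gave 4 rises and 1 fall among 11 tested. The scavenger receptor gene Cd36 rose from 6.74 ± 3.99 to 43.8 ± 35.5 CPM (edgeR adjusted p = 0.00232), the lipid droplet gene Plin2 from 97.5 ± 6.30 to 165 ± 45.6 CPM (edgeR adjusted p = 0.00144), and the lysosomal acid lipase gene Lipa from 423 ± 38.0 to 570 ± 84.5 CPM (SD, n = 8, edgeR adjusted p = 0.00483). Lipa was not called in lane code 1 (edgeR adjusted p = 0.0920). The group by lane term was called for Plin2 (0.74, edgeR adjusted p = 0.0305), with OIR means of 134 CPM in lane code 1 and 217 CPM in lane code 2. For Cd36 the OIR means were 18.9 and 85.3 CPM, and the term was not called (edgeR adjusted p = 0.242). The other gene that rose was Fabp5. The lipase gene Mgll fell (-0.58, edgeR adjusted p = 0.0477), a call lost without any of 13 single libraries (all but OIR replicates 1, 2 and 5). Mgll was also not called in lane code 1 (edgeR adjusted p = 0.166).

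Like Cd68 itself, none of 5 tested genes of other lysosomal membrane proteins, the LAMP relatives of CD68 among them, was called. Lamp1 stood at 2099 ± 258 CPM in nonOIR and 2453 ± 236 CPM in OIR, and Lamp2 at 2193 ± 429 and 1882 ± 202 CPM (SD, n = 8, edgeR adjusted p = 0.0985 and 0.219). With lane as a covariate 2 of the 5 were called higher and 1 lower, and with DESeq2 2 were called higher.

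Of 12 tested genes around the Ch25h product, 2 rose and 2 fell. The sterol exporters Abca1 and Abcg1, targets of oxysterol-sensing receptors, rose from 123 ± 41.9 to 268 ± 76.2 CPM and from 43.5 ± 16.4 to 103 ± 14.7 CPM (SD, n = 8, edgeR adjusted p = 0.00172 and 0.000435), in both lanes. Gpr183, the receptor for the dihydroxylated oxysterol made from the Ch25h product, fell from 427 ± 45.6 to 281 ± 30.4 CPM (edgeR adjusted p = 0.000254), also in both lanes. Srebf2, whose protein turns on cholesterol synthesis and is held back by that product, fell by 0.49 on the log2 scale (edgeR adjusted p = 0.0491), a call lost without any of 13 single libraries (all but nonOIR replicate 6 and OIR replicates 1 and 3). Srebf2 was also not called in lane code 2 (edgeR adjusted p = 0.266). The enzymes that make and break down the Gpr183 ligand had almost no counts, with 3 for Cyp7b1 and 0 for Hsd3b7 over all 16 libraries.

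**Figure D5:**
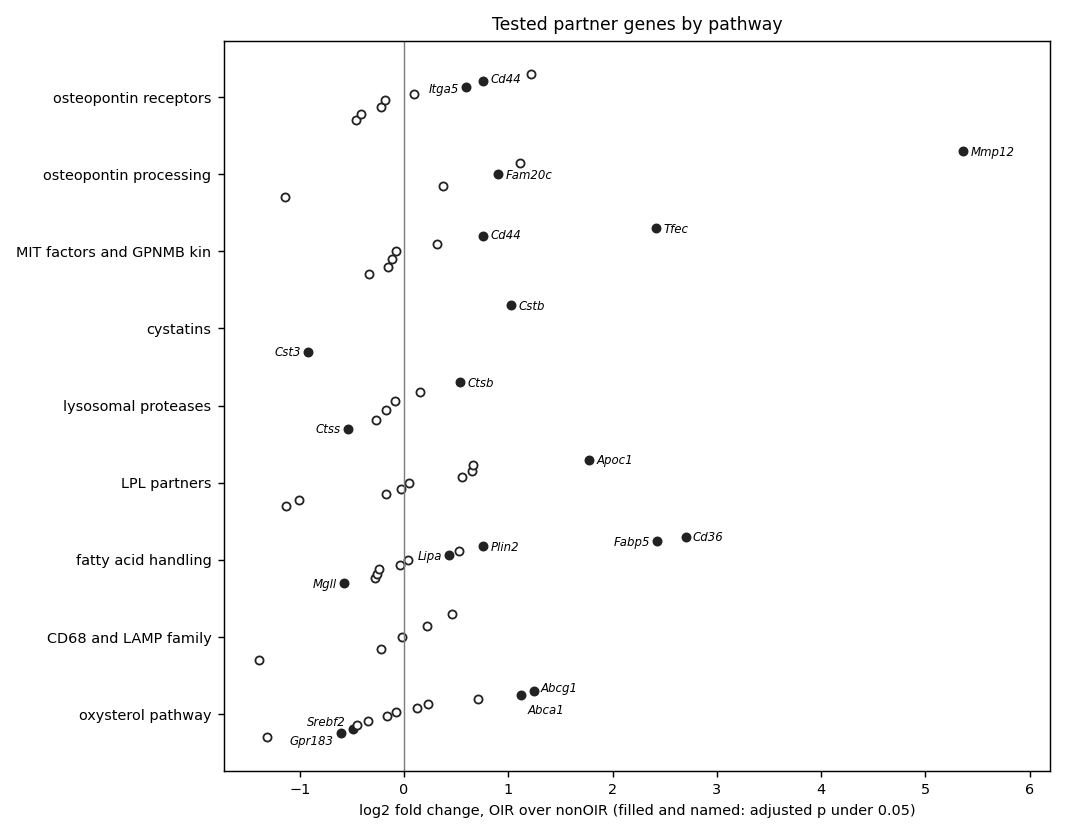
log2 fold change of OIR over nonOIR for tested genes of 9 partner lists, filled and named where the edgeR adjusted p is under 0.05. In most lists points lie on both sides of 0, with Mmp12 at 5.36, Cd36 at 2.70 and Fabp5 at 2.43 farthest to the right.

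Genes whose level followed each effector most closely were ranked by Pearson r of log2(CPM + 1) over the 16 libraries after the mean of each group and lane was subtracted, among 7810 tested genes with a mean of at least 10 CPM. The closest were Brms1l, Tmem154 and Zfp52 for Spp1 (0.847 to 0.821), Igf1, Kmt5a and Nfs1 for Gpnmb (0.879 to 0.831), and Olfml3, Fcrls and Sil1 for Cst7 (0.905 to 0.818). For Lpl they were Ufl1, Nudt4 and Rab7 (0.879 to 0.816), for Cd68 Sparc, Slc15a3 and Trmt2a (0.915 to 0.856), and for Ch25h Spg7, Dennd1a and Elf4 (0.878 to 0.868). The points share library and depth, and these are the highest of many values, so they are a description. Of these 18 genes only Igf1 and Rab7 were called between groups (edgeR), Igf1 as above and Rab7 with a log2 fold change of 0.28 (edgeR adjusted p = 0.0208).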

How the data were processed

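The deposited table holds 1 line per gene with counts of reads for 16 libraries, per the file headers. Its normalized signal columns, log2 fold change, Wald score and p-values are the authors' deposited values, used only where named. Tools listed in the submitters' processing notes, with no role given, are featureCounts 1.6.2, STAR 2.6.0b-1, DESeq2 2.11.40.2 and FastQC 0.72, with mm10 as the build. The sources used here do not give the annotation. Per the labels' protocols, cDNA was made from 750 pg of RNA with 12 cycles of amplification and read as single 50-base reads, without molecular identifiers, so floors cover counting error only.

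In R 4.3.3, edgeR 4.0.16 removed low counts (filterByExpr), set scaling factors (TMM) and ran the quasi-likelihood test (robust glmQLFit, two-sided glmQLFTest) with Benjamini-Hochberg adjustment over every tested gene. The biological coefficient of variation was 40.3%. The same test was run within each lane code and on the group by lane term, and limma 3.58.1 (voom) and DESeq2 1.42.0 were alternatives, with other scalings, filters, lane, replicate number and the omission of each library. Scripts were tested on simulated counts of the 16 libraries. There edgeR recovered 22 of 67 planted 1.5-fold changes, 37 of 67 planted 2-fold and 59 of 66 planted 4-fold changes, with 6 false calls among 124. A gene that was not called may therefore still differ by such small folds. No 2 libraries of a group matched within sampling noise. Named genes were the 6 effectors, every called gene of a partner list (with the most abundant others, up to 2, where fewer passed), the 4 lowest p in each direction among other state genes, and the 3 closest genes by r. Trem2, Tyrobp, Fth1, Itgb5, the cathepsins C, L and H, legumain, Mitf, Tfeb, Tfe3, Apoc2, Gpihbp1, Cyp7b1, Hsd3b7 and Ly6c2, Ly6g, Retnlg, Ccr2 and Plac8 were added after their values were seen. The effectors and all lists were chosen with earlier results of these data known. Values of some single genes and of 1 list are not reported here.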

Additional observations from a re-analysis of the deposited data

Results flagged for a closer look

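The OIR difference of Spp1 was larger in lane code 2 than in lane code 1 by 3.56 on the log2 scale, by a test of the difference itself (edgeR adjusted p = 0.00881). All 3 OIR libraries of lane code 2 lay above the 5 of lane code 1, and the nonOIR libraries of the lanes overlapped. The same test gave 1.32 for Lpl (edgeR adjusted p = 0.00210), where all 3 nonOIR libraries of lane code 2 lay below the 5 of lane code 1. In 12 groups of 8 libraries, 1 for each gene and condition, no single library stood apart by Dixon's test, where chance gives about 1 in 20. That includes nonOIR replicate 8 for Gpnmb, with 5 counts (0.217 CPM) where the next lowest nonOIR library held 85. The test sets a gap against the range, so its outcome depends on the scale of the values. It does not show that this library is like the others.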

How the results depend on the processing

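Over all alternatives run, the log2 fold changes of Cst7 (1.13 to 1.77), Lpl (1.24 to 2.59) and Gpnmb (1.82 to 4.11) kept their direction and their call. Spp1 lost its call with limma-voom and in lane code 1, as given above. The fold change of Cd68 turned to -0.0295 and that of Ch25h to -0.0498 in lane code 1. Of 12496 genes, 1368 were called, and 2159 with lane as a covariate. In lane code 1 417 of 12523 tested genes were called and in lane code 2 2015 of 13085. DESeq2, with its own filter, called 2019. With a single library left out in turn, 935 to 1556 genes and 4 to 5 of the 6 effectors were called, and log2 fold changes were 2.25 to 2.93 for Spp1, 2.53 to 2.85 for Gpnmb, 1.30 to 1.43 for Cst7, 1.54 to 1.73 for Lpl, 0.07 to 0.17 for Cd68 and 1.58 to 2.12 for Ch25h. Leaving out OIR replicate 1 and nonOIR replicate 8 together, chosen after seeing the data, gave Ch25h 2.06 (edgeR adjusted p = 0.0321). With lane as a covariate Ch25h had 1.10 (edgeR adjusted p = 0.299).

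Replicate numbers did not pair the libraries: same-numbered libraries had correlations of -0.0156 to 0.202 in their deviations from the group means, and only numbers 6 and 7 correlated best with their own number. These numbers carry lane code 2 in both groups. After the mean of each group and lane was subtracted, same-numbered libraries had correlations of -0.0718 to 0.0637. With the replicate number as a block 1679 genes and 3 of the 6 effectors were called, and Spp1 had 1.96 (edgeR adjusted p = 0.0717). This block also takes up the lane, because each number has the same lane code in both groups.

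Of 30 relations between pairs of effectors within a group, 1 passed Benjamini-Hochberg adjustment and 0 did without the 2 farthest libraries. The smallest exact permutation p that 6 libraries allow is 0.00278, and the relation that had passed stood at that p. Adjusted over 30 relations, 1 relation alone cannot pass at that p, so the omission decides nothing about it. In 23 of the 30, at least 1 gene separates the lanes (both genes in 7), so no correlation is given. Depth limits Ch25h most, with 13 to 32 counts per nonOIR library and 0 to 56 per OIR library of lane code 1.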
